A study of Mus musculus with 18 samples.

Results

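Immediate early genes are transcribed within minutes of a stimulus from factors that are already present in the cell, and their messages are short lived. In granule cells, the principal neurons of the dentate gyrus, they are widely used as a record of recent activity, because calcium entry and the ERK kinase pathway act on CREB, SRF and MEF2 at their promoters. The 10 genes described here encode transcription factors of the AP-1 (Fos, Fosb, Junb) and EGR (Egr1, Egr2, Egr4) families, the neuronal transcription factor Npas4, the orphan nuclear receptor Nr4a1, the synaptic protein Arc and the MAP kinase phosphatase Dusp1. They were taken by symbol from the 34620 genes listed in the RNA-Seq counts, and all 10 were among the 17421 genes with enough reads to be tested. The rule took them by symbol alone.

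RNA was measured in the granule cell layer of the ventral dentate gyrus, microdissected from frozen sections. The mice were Swiss Webster males aged 8 to 12 weeks. WT males had a WT mother and grandmother. F1 males were genetically WT with a mother and grandmother heterozygous for the serotonin 1A receptor (5HT1A-/+). F2 males were born to such WT F1 females mated with WT males, so their mother was WT and their maternal grandmother 5HT1A-/+. By the paper's methods, F1 came from crosses between heterozygous parents. The fathers of F1 and the maternal grandfathers of F2 were therefore also heterozygous. No animal measured carried the mutant allele, and the study asked what the maternal and grandmaternal genotype leaves in the brain of the adult offspring. Each group had 2 libraries. The labels do not say how many animals a library holds, so the p-values below measure the spread between libraries, which may be partly technical. The number of reads assigned to genes ranged from 26358165 to 33727936. The granule cell markers used to check the tissue, such as Prox1 and Calb1, were detected in every library. Levels are CPM, the read counts scaled to library size after TMM normalization, and a change was called at a Benjamini-Hochberg adjusted p under 0.01 in edgeR's exact test over all 17421 genes. In bulk tissue, fewer expressing cells and less RNA per cell cannot be told apart.

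Promoter sequences were available for 8 of the 10 genes in the RefSeq table of build GRCm38.p6, those other than Arc and Egr1. The 250 bases before each start were matched exactly, at a single place, to the same chromosome of mm9, the build of the counts, and coordinates are those of mm9. All 8 windows held at least 1 copy of TGACG, the core of the cyclic AMP response element that CREB binds, read on either strand (CGTCA on the other strand). The same letters were found in 17.9% of 27025 promoters of this length, 1 for each gene. The sequences of Fos, Egr2, Npas4 and Dusp1 are shown, chosen as follows. Fos had the largest difference between the F1 libraries and Egr2 the largest change in F1. Npas4 had the lowest F2 level relative to WT, and Dusp1 the only full TGACGTCA element. Capitals mark TGACG on either strand and, in Egr2, a CArG box, the SRF-binding element.
Fos, chr12:86814590-86814839, plus strand: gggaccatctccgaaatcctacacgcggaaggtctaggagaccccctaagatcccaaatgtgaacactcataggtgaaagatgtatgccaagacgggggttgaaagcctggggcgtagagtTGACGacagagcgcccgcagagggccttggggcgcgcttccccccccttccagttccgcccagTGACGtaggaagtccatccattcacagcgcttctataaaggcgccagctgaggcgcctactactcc
Egr2, chr10:67000367-67000616, plus strand: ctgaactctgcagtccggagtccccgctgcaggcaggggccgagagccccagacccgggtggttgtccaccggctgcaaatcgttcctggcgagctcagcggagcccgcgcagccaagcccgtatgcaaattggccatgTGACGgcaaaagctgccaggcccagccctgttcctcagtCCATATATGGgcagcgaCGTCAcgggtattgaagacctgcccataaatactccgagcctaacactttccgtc
Npas4, chr19:4989972-4990221, minus strand: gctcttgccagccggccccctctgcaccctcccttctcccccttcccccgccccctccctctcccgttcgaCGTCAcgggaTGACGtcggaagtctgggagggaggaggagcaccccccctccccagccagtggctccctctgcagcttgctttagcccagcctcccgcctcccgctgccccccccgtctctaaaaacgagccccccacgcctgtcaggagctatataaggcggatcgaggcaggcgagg
Dusp1, chr17:26645418-26645667, minus strand: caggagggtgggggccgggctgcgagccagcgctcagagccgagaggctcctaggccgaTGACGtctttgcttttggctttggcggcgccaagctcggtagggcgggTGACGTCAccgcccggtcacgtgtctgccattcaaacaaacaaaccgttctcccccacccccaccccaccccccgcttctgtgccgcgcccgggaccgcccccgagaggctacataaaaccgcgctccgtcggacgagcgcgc

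In Fos the TGACG copies began 129 and 66 bases before the start, and in Npas4 they lay 179 and 169 bases before it. In Egr2 they lay 111 and 55 bases before the start, on either side of the CArG box at 72. RefSeq lists 5 starts for Egr2. The window shown is that of the main GENCODE transcript, and 3 of the 5 windows held TGACG and 4 a CArG box. In Dusp1 the copies at 143 and 140 bases are the opposite strands of the TGACGTCA palindrome, so they are a single element, and another copy lay at 191. All distances are from the RefSeq start, which differed from the main GENCODE start in Dusp1 and Junb. The Dusp1 window overlaps the GENCODE span of that gene, and the Egr2 window lies wholly within the span of Egr2. A CArG box was found in 1 of the 8 windows, against 1.4% of all promoters, and TGACGTCA in 1 of 8, against 1.62%. The EGR site GCGNGGGCG was present in Fosb, 50 bases before its start, and in Nr4a1, 60 bases before it, against 4.65% of all promoters. The AP-1 site TGANTCA was in none of the 8, against 6.87% of all promoters. These are matches of letters in a short window and say nothing of occupancy.

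A single library stood apart. F1 replicate 1 was the highest of the 6 libraries for all 10 genes, whereas it was the highest for 15.9% of all genes tested. On the log2 scale, after each gene was centred on its mean over the 6 libraries, the mean of the 10 genes was 0.87 in F1 replicate 1. It was between -0.26 and -0.04 in the 5 other libraries, F1 replicate 2 included, at -0.19. The median absolute difference between the replicates of a group was 1.02 (log2) for the 10 genes in F1, against 0.18 for all tested genes in F1. It was 0.20 for the 10 genes in WT and 0.11 in F2, close to the 0.16 and 0.15 of all genes. The plot of centred levels shows this as a single column of high values. The log2 changes that use F1 are therefore given with and without F1 replicate 1, and other left-out libraries where they end a call.

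**Figure D1:**
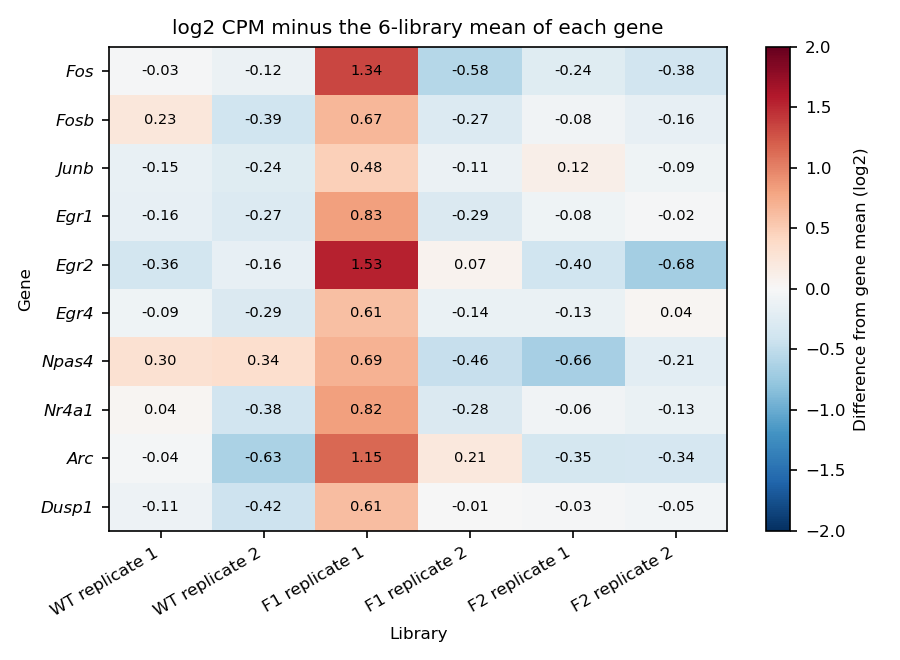
Each row is a gene and each column a library. Colours and printed numbers give log2 CPM minus the mean of that gene over the 6 libraries. The column of F1 replicate 1 is above 0 for all 10 genes, from 0.48 for Junb to 1.53 for Egr2, while F1 replicate 2 lies between -0.58 for Fos and 0.21 for Arc.

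Per kilobase of exon, the WT order of mean levels was Junb (19.5 ± 0.865 CPM per kb, SD, n = 2), Egr1 (15.6 ± 0.799), Arc (13.7 ± 3.86), Nr4a1 (6.91 ± 1.42), Egr4 (5.62 ± 0.549), Dusp1 (3.51 ± 0.530), Fos (3.50 ± 0.145), Npas4 (2.00 ± 0.0392), Fosb (1.45 ± 0.439) and Egr2 (0.280 ± 0.0288). Among neighbours in this order, the WT libraries of Egr1 and Arc overlapped, as did those of Nr4a1 and Egr4 and those of Dusp1 and Fos. The other neighbours did not overlap in their 2 libraries. In F1, Arc was first by its mean, at 28.6 ± 12.7 CPM per kb, ahead of Junb at 25.9 ± 7.46 and Egr1 at 23.5 ± 12.2, differences well within the SDs. In F2 the order was again Junb (22.6 ± 2.36), Egr1 (17.5 ± 0.508) and Arc (13.3 ± 0.114). Egr2 was the lowest of the 10 in each group, and its counts were few, from 19 to 101 reads per library.

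**Figure D2:**
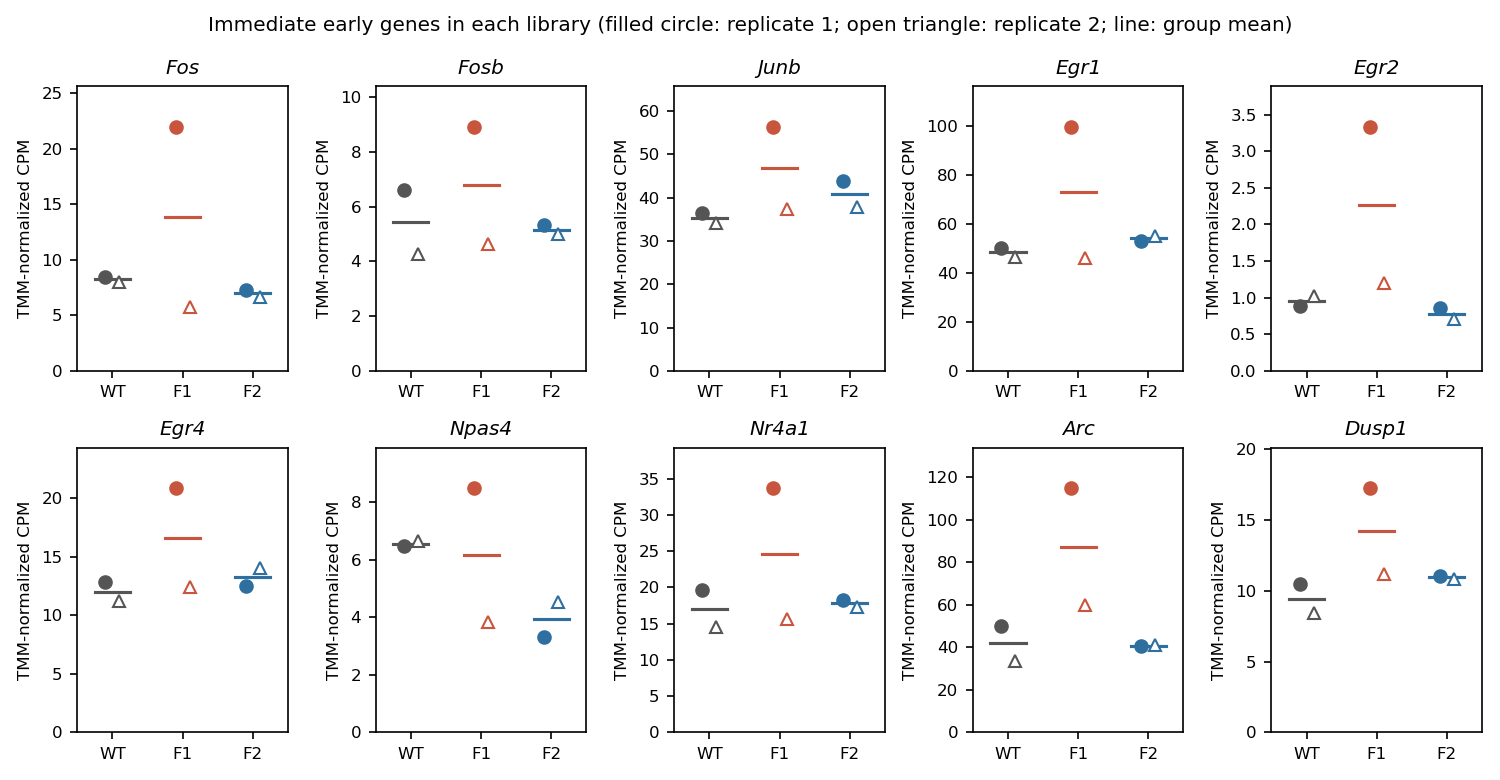
TMM-normalized CPM (vertical axes, each from 0) of each gene in the WT, F1 and F2 libraries. Filled circles are replicate 1, open triangles replicate 2 and lines the group means. The filled F1 circle is the highest point in all 10 panels, and the open F1 triangle lies near the WT and F2 points for most genes.

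Arc, which encodes a cytoskeleton-associated protein that is translated at active synapses and acts in AMPA receptor endocytosis, lies at chr15:74499513-74503000 on the minus strand (mm9). It was the only one of the 10 genes called. Arc was at 50.2 and 33.5 CPM in the WT libraries, 115 and 59.9 in F1, and 40.5 and 41.0 in F2. Both F1 libraries were above all WT and F2 libraries, and the F2 libraries lay between the WT ones. Arc was 2.08-fold higher in F1 than in WT (log2 fold change 1.06, SE 0.24, exact test, adjusted p = 0.00033). It was lower in F2 than in F1 by 1.10 on the log2 scale (SE 0.24, exact test, adjusted p = 0.00188). Between F2 and WT the log2 difference was -0.04, with a 95% interval from -0.52 to 0.44. The F1 change was 0.53 without F1 replicate 1 and was no longer called (exact test, adjusted p = 0.0423), and the difference between F2 and F1 was then -0.56 (adjusted p = 0.229). The F1 call was also lost without WT replicate 2, at 0.81 (exact test, adjusted p = 0.0400), with edgeR's quasi-likelihood test (adjusted p = 0.0161) and with DESeq2 (adjusted p = 0.0719). Over the 11 other settings of the tests, filters and normalization, its adjusted p ran from 2.87e-06 to 0.0719. The call between F2 and F1 was also lost, with little change of the value, without F2 replicate 1 (-1.09, exact test, adjusted p = 0.170), without F2 replicate 2 (-1.11, adjusted p = 0.0781), with the quasi-likelihood test (adjusted p = 0.139) and with DESeq2 (adjusted p = 0.378). Counting these 11 settings and each of the 6 libraries left out, Arc was called in 13 of 17 in F1 against WT and in 11 of 17 in F2 against F1.

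The single call in F1 stands against 12.3% of all genes tested that were called in that comparison, 3.77% higher and 8.54% lower. At an adjusted p under 0.05, 3 of the 10 genes passed (Egr2, Arc and Dusp1), against 20.8% of all genes. Under the quasi-likelihood test 0 of the 10 genes were called, against 5.91% of all genes, and 6 had an unadjusted p under 0.05 by that test and by the exact test alike, where 33.3% and 32.6% of all genes did. DESeq2 also called 0, and its share of all genes was not computed. The exact test without F1 replicate 1 called 0 of 10, against 11.3% of 18027 genes, and without F1 replicate 2 it called 8, all higher, against 5.95% of 18013 genes. The 4 genes whose F1 libraries both lay above both WT libraries were Junb, Egr2, Arc and Dusp1, and none lay below. For all genes tested, 29.8% had no overlap with F1 higher and 30.6% with F1 lower. The median log2 change of the 10 genes was 0.56, against 0.01 for all genes tested. It was 0.00063 without F1 replicate 1.

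The AP-1 subunits did not pass the test in any comparison. Fos, the partner of the Jun proteins in AP-1 (chr12:86814840-86818223, plus strand), was at 8.47 and 7.99 CPM in WT, 22.0 and 5.80 in F1, and 7.33 and 6.65 in F2. The F1 libraries thus held both the highest and the lowest Fos level of the 6, and F1 replicate 1 was 3.78-fold above F1 replicate 2. Only 0.459% of tested genes had as large an excess in F1 replicate 1. The F1 change of Fos was 0.75 (log2, SE 0.41, exact test, adjusted p = 0.197) with both libraries and -0.49 (adjusted p = 0.130) without F1 replicate 1. Fos was slightly lower in both F2 libraries than in WT, with a log2 difference of -0.24 that did not exceed its error (SE 0.42, exact test, adjusted p = 0.753).

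Fosb, the family member whose truncated product accumulates with repeated stimulation (chr7:19888070-19895394, minus strand), was at 6.59 and 4.26 CPM in WT, 8.91 and 4.63 in F1, and 5.31 and 5.01 in F2. The WT libraries differed by more than the F2 ones, and F1 replicate 2 lay within the WT range. The F1 change was 0.32 (log2, SE 0.31, exact test, adjusted p = 0.519), or -0.22 (adjusted p = 0.682) without F1 replicate 1, and that of F2 was -0.08 (SE 0.31, adjusted p = 0.919). Junb, a Jun family subunit with a single exon (chr8:87500811-87502617, minus strand), was at 36.4 and 34.1 CPM in WT, 56.3 and 37.3 in F1, and 43.9 and 37.8 in F2. All 4 F1 and F2 libraries were above WT, but the second library of each exceeded it by little. The log2 change of Junb was 0.41 in F1 (SE 0.18, exact test, adjusted p = 0.0802) and 0.21 in F2 (SE 0.18, adjusted p = 0.435). The F1 value was 0.09 without F1 replicate 1. Junb had the smallest gap of the 10 between the F1 libraries, at 1.51-fold.

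The EGR factors are zinc finger proteins that bind GC-rich promoter elements. Egr1, also known as Zif268 and needed for the late phase of long-term potentiation, was at 50.2 and 46.7 CPM in WT, 99.7 and 46.1 in F1, and 53.1 and 55.3 in F2. F1 replicate 1 was at 1.80 times the next highest library, and F1 replicate 2 was the lowest of the 6. The log2 change was 0.59 in F1 (SE 0.25, exact test, adjusted p = 0.0706), -0.06 without F1 replicate 1, and 0.16 in F2 (SE 0.25, adjusted p = 0.704). An exon of Egr1 overlaps the antisense gene Gm17507, and the strand setting of the counting is not given in the sources used here, so reads of the pair may not be separated.

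Egr2, also a regulator of myelination in Schwann cells (chr10:66998223-67004936, plus strand), had the largest fitted change. It was at 0.882 and 1.02 CPM in WT, 3.33 and 1.20 in F1, and 0.860 and 0.705 in F2. Its F1 libraries were both above WT, and its F2 libraries both below. The log2 change in F1 was 1.25 (SE 0.45, exact test, adjusted p = 0.0339), short of the threshold, and it was 0.35 (adjusted p = 0.654) without F1 replicate 1. In F2 it was -0.28 (SE 0.48, exact test, adjusted p = 0.763). Egr4 (chr6:85461125-85463583, minus strand) was at 12.9 and 11.2 CPM in WT, 20.9 and 12.4 in F1, and 12.5 and 14.1 in F2. Only F1 replicate 1 lay outside a narrow common range. The log2 change of Egr4 was 0.47 in F1 (SE 0.23, exact test, adjusted p = 0.131), 0.06 without F1 replicate 1, and 0.14 in F2 (SE 0.23, adjusted p = 0.725).

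Npas4, a neuron-specific factor induced by calcium entry that regulates inhibitory synapses (chr19:4984355-4989971, minus strand), had a different order of groups. It was at 6.47 and 6.65 CPM in WT, 8.48 and 3.82 in F1, and 3.33 and 4.53 in F2. Both F2 libraries and F1 replicate 2 were below WT, and F1 replicate 1 was above it. The F2 level was 0.599 of WT (log2 fold change -0.74, SE 0.33, 95% interval from -1.38 to -0.10), with an unadjusted p of 0.0248 and an adjusted p of 0.0934 in the exact test. This was the lowest adjusted p of the 10 genes in F2 against WT. It passed the threshold, at 0.0083, when F1 replicate 1 was left out of the shared dispersion, and at 0.0070 when either F1 replicate 2 was left out or the dispersion was estimated from the WT and F2 libraries alone (exact test, log2 fold changes -0.73, -0.73 and -0.74). These were 3 of 17 settings. In the others it did not pass, and without F2 replicate 1 the value was -0.53 (exact test, adjusted p = 0.562), while without either WT library the adjusted p was 0.26. It was 0.140 without F2 replicate 2 and 0.125 in the quasi-likelihood test. In F1 the log2 change was -0.09 (SE 0.32, exact test, adjusted p = 0.889) with both libraries, and -0.77 (adjusted p = 0.0335) with F1 replicate 2 alone.

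Nr4a1, a nuclear receptor without a known natural ligand (chr15:101097277-101105223, plus strand), was at 19.6 and 14.6 CPM in WT, 33.7 and 15.7 in F1, and 18.2 and 17.4 in F2. F1 replicate 2 and both F2 libraries were within the WT range. The log2 change was 0.53 in F1 (SE 0.28, exact test, adjusted p = 0.166), -0.12 without F1 replicate 1, and 0.06 in F2 (SE 0.28, adjusted p = 0.929). Dusp1, which dephosphorylates p38, JNK and ERK and so limits the pathways that induce it (chr17:26642535-26645464, minus strand), was at 10.5 and 8.45 CPM in WT, 17.3 and 11.2 in F1, and 11.1 and 10.9 in F2. All F1 and F2 libraries were above WT. The log2 change was 0.59 in F1 (SE 0.22, exact test, adjusted p = 0.0417), short of the threshold, 0.25 without F1 replicate 1, and 0.21 in F2 (SE 0.22, adjusted p = 0.560).

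**Figure D3:**
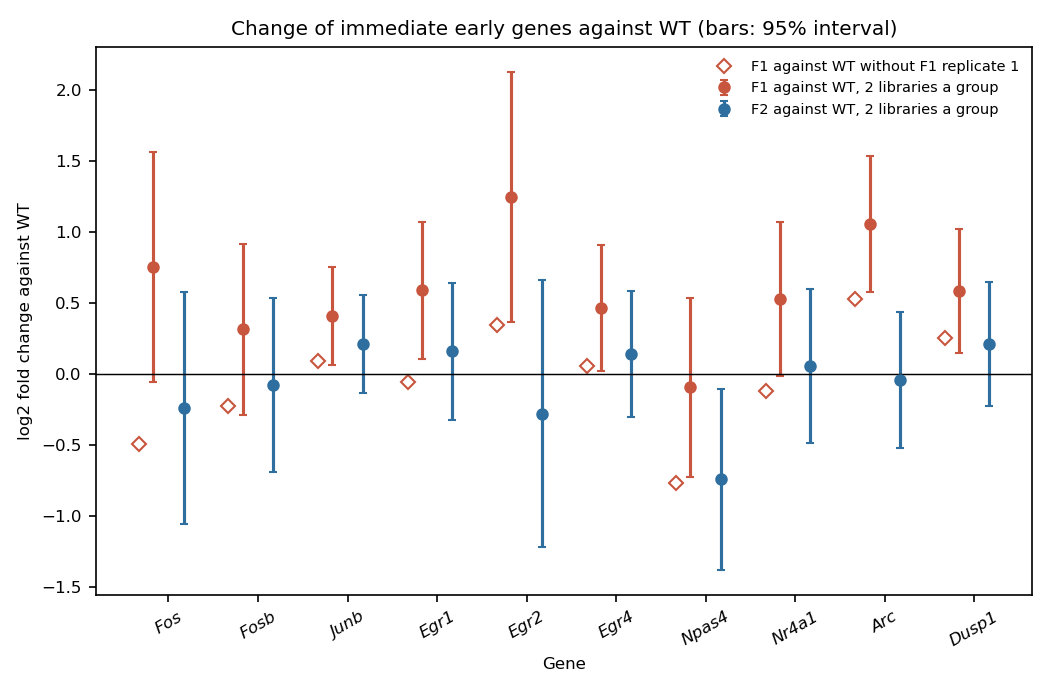
Fitted log2 fold changes against WT (vertical axis) of each gene. Filled circles are F1 (red) and F2 (blue) with 2 libraries a group, bars are 95% intervals, and open diamonds are F1 without its replicate 1. With both F1 libraries 9 of 10 genes lie above 0, and the diamonds spread around 0, from -0.77 for Npas4 to 0.53 for Arc.

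Against WT, F2 gave 0 calls among the 10 genes by the exact test, the quasi-likelihood test and DESeq2, where 3.86% of all genes were called higher and 8.10% lower by the exact test and 5.72% in either direction by the quasi-likelihood test. Without F1 replicate 1 in the shared dispersion 1 of the 10 was called, Npas4, against 14.3% of all genes. Of the 10 genes, 1 had an unadjusted p under 0.05 by the exact test, Npas4, and 1 by the quasi-likelihood test, against 32.4% and 33.2% of all genes. Junb, Egr1 and Dusp1 were higher in both F2 libraries than in both WT libraries, and Fos, Egr2 and Npas4 were lower. Among all genes, 31.0% were higher and 32.0% lower in this way. The median log2 change was 0.01, with 5 of 10 genes above 0. The largest upper bound of the 95% intervals in F2 against WT was 0.66, for Egr2, and that of Arc was 0.44. The F1 and F2 comparisons share the WT libraries and are not independent.

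Between F2 and F1, 0.740% of all genes were called, and 0.436% were lower in F2. Arc was the only one of the 10 genes called. None of the 10 was called without F1 replicate 1, against 0.749% of all genes. By the quasi-likelihood test, which called 0.0115% of all genes, and by DESeq2, 0 of the 10 were called, and 4 had an unadjusted p under 0.05 by the exact test and 3 by the quasi-likelihood test, against 8.64% and 9.01% of all genes. Leaving out F1 replicate 2 instead gave 6 calls, against 1.24% of all genes. All 10 fitted changes were below 0, with a median of -0.45, which became 0.11 without F1 replicate 1. The value of Egr2 was -1.53 (log2, SE 0.46, exact test, adjusted p = 0.0699), and -0.61 (adjusted p = 0.992) without F1 replicate 1. That of Fos was -0.99 (SE 0.41, exact test, adjusted p = 0.381), and it turned to 0.27 without that library. Egr2, Arc and Dusp1 were lower in both F2 libraries than in both F1 libraries, and 19.7% of all genes were lower in this way.

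The dispersion of these genes, fitted over all 6 libraries, was larger than that of most genes. Their median absolute gap between replicates was 1.02 in F1, 0.20 in WT and 0.11 in F2 (log2). For all genes tested it was 0.18, 0.16 and 0.15. The median coefficient of variation from the tagwise dispersion was 17.8% for the 10 genes and 11.1% for all genes tested. It was highest for Fos, at 28.1%, and Egr2, at 26.7%, and lowest for Junb, at 11.8%. The excess of F1 replicate 1 over F1 replicate 2 was, after Fos, largest for Egr2 (1.46 on the log2 scale), Npas4 (1.15), Egr1 (1.11) and Nr4a1 (1.10), and 0.94 for both Fosb and Arc. It was 0.75 for Egr4, 0.62 for Dusp1 and 0.60 for Junb. Between 0.953% (Egr2) and 6.18% (Junb) of tested genes had as large an excess as these 9 genes. WT replicate 2 was the lowest library for 6 of the 10 genes.

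Relatives of these genes were also measured. Those tested were 8 further genes of the AP-1, EGR and NR4A families and their AP-1 partners. Of these, 2 were highest in F1 replicate 1, against 15.9% of all genes tested. In F1, 2 were called, both higher, where 3.77% of all genes were higher and 8.54% lower. Egr3, a close relative of Egr1, was at 9.56 and 9.50 CPM in WT, 13.8 and 21.6 in F1, and 24.2 and 19.5 in F2. Within F1 it was higher in replicate 2, the reverse of the 10 genes. Egr3 rose by 0.89 in F1 (log2, SE 0.21, exact test, adjusted p = 0.000559), by 1.19 without F1 replicate 1, and by 1.20 in F2 (SE 0.21, adjusted p = 1.21e-06). The F1 call of Egr3 was lost without WT replicate 1 (exact test, adjusted p = 0.0214), WT replicate 2 (0.0169) or F1 replicate 2 (log2 change 0.54, adjusted p = 0.0618) and in the quasi-likelihood test (adjusted p = 0.0127). Nr4a3, a relative of Nr4a1, was at 65.2 and 68.3 CPM in WT, 99.9 and 86.1 in F1, and 56.6 and 60.6 in F2. Both its F1 libraries were above all others. Nr4a3 rose by 0.48 in F1 (SE 0.12, exact test, adjusted p = 0.00132) and was 0.67 lower in F2 than in F1 (SE 0.12, adjusted p = 2.83e-05). With F1 replicate 1 left out these values were 0.38 (exact test, adjusted p = 0.0335) and -0.56 (adjusted p = 0.00731). The difference between F2 and F1 was not called without F2 replicate 1 (-0.61, exact test, adjusted p = 0.0575) or in the quasi-likelihood test (adjusted p = 0.0274). The median change of the relatives was 0.10 in F1, or 0.01 without F1 replicate 1, and 0.24 in F2.

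Among 34 further early response genes, 20 were highest in F1 replicate 1, against 15.9% of all genes tested. In F1, 8 were called higher and 1 lower, where 3.77% of all genes were higher and 8.54% lower. The median log2 change was 0.31, and 0.18 without F1 replicate 1. Cyr61, a secreted matrix protein, was at 2.97 and 2.78 CPM in WT, 12.1 and 3.63 in F1, and 3.81 and 2.97 in F2. Like Fos, it was high in F1 replicate 1 and near the other groups in F1 replicate 2. It rose by 1.45 in F1 (log2, SE 0.42, exact test, adjusted p = 0.00626), and the value was 0.34 (adjusted p = 0.442) without F1 replicate 1. Ctgf, its relative, rose by 0.93 (SE 0.27, exact test, adjusted p = 0.00458), and its value was 0.59 (adjusted p = 0.110) without that library. Without F1 replicate 1, 2 of the 34 were called in F1. These were Dusp4, a nuclear MAP kinase phosphatase, and Amigo3, a neuronal adhesion protein.

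Dusp4 was at 7.94 and 6.23 CPM in WT, 9.28 and 16.8 in F1, and 16.4 and 12.7 in F2. It had the pattern of Egr3, with F1 replicate 2 above F1 replicate 1. Dusp4 rose by 0.88 in F1 (log2, SE 0.27, exact test, adjusted p = 0.00859), by 1.25 (adjusted p = 2.26e-06) without F1 replicate 1, and by 1.03 in F2 (SE 0.26, adjusted p = 0.00151). The F1 call held in only 6 of 17 settings. It was lost without any other single library, with a value of 0.39 (exact test, adjusted p = 0.326) without F1 replicate 2, and in the quasi-likelihood test (adjusted p = 0.0368). In F2 the call held in 12 of 17, and was lost in the quasi-likelihood test and without either WT library or F2 replicate 1. Amigo3 was at 8.80 and 5.77 CPM in WT, 2.90 and 2.17 in F1, and 3.22 and 2.97 in F2, below WT in every F1 and F2 library. It fell by 1.52 in F1 (SE 0.27, exact test, adjusted p = 1.15e-06), by 1.74 without F1 replicate 1, and by 1.24 in F2 (SE 0.27, adjusted p = 0.000114). In F2, 4 of the 34 were called, 3 higher and 1 lower, where 3.86% of all genes were higher and 8.10% lower. Trib1, a pseudokinase, was among the 3 called higher (0.78, SE 0.24, exact test, adjusted p = 0.00888). Between F2 and F1, 0 of the 34 were called by the exact test or the quasi-likelihood test, against 0.740% and 0.0115% of all genes. By the same tests 4 and 5 had an unadjusted p under 0.05, against 8.64% and 9.01% of all genes.

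**Figure D4:**
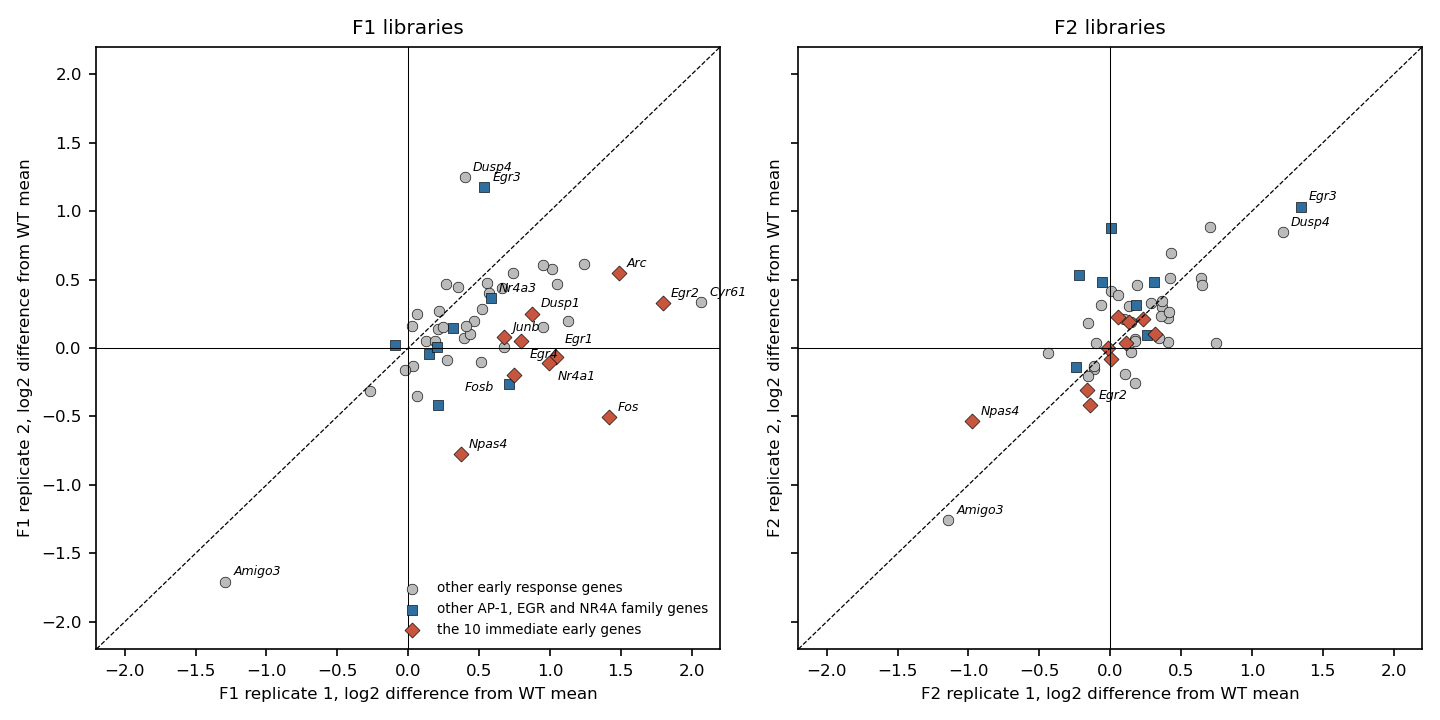
Log2 difference from the WT mean in replicate 1 (horizontal axis) and replicate 2 (vertical axis) of F1 (left) and F2 (right). Diamonds are the 10 immediate early genes, squares their tested relatives and circles further early response genes, and the dashed line marks equal values. In F1 all 10 diamonds lie right of the line, and Egr3 and Dusp4 lie left of it. In F2 the 10 diamonds lie on both sides of the line, with a median gap of 0.11 between replicates, and several squares and circles lie farther from it.

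Of 16 genes grouped here as late response genes, 6 were highest in F1 replicate 1, against 15.9% of all genes. In F1 and in F2, 1 of the 16 was called, higher, where 3.77% and 3.86% of all genes were called higher. Rgs4, which shortens G protein signals, was at 96.3 and 87.3 CPM in WT, 146 and 150 in F1, and 149 and 147 in F2. It rose by 0.69 in both comparisons (log2, SE 0.12, exact test, adjusted p = 1.92e-07 in F1 and 2.19e-07 in F2), and by 0.72 in F1 without F1 replicate 1, with F1 and F2 libraries close to each other. Of 32 tested genes of the signalling route to these promoters, 1 was highest in F1 replicate 1, against 15.9% of all genes. In F1, 1 was called higher and 2 lower, where 3.77% of all genes were higher and 8.54% lower. Crtc2, a coactivator of CREB, was at 47.1 and 37.5 CPM in WT, 23.1 and 21.4 in F1, and 24.1 and 22.7 in F2. It fell by 0.93 in F1 (log2, SE 0.15, exact test, adjusted p = 7.53e-08) and by 0.86 in F2 (SE 0.15, adjusted p = 1.14e-06). Its relative Crtc3 fell by 0.57 in F1 (SE 0.14, exact test, adjusted p = 0.000603), and its F2 value was -0.31 (adjusted p = 0.0923).

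Camk4, a calcium-activated kinase that phosphorylates CREB, was at 78.1 and 82.4 CPM in WT, 131 and 135 in F1, and 78.2 and 107 in F2. It rose by 0.73 in F1 (log2, SE 0.15, exact test, adjusted p = 1.56e-05). Mef2c, a transcription factor that acts on Arc and other activity-regulated genes, rose by 0.44 in F2 (SE 0.12, exact test, adjusted p = 0.00419), and its F1 value was 0.07, or 0.16 without F1 replicate 1. Without that library, Crtc2 (-0.97), Crtc3 (-0.60) and Camk4 (0.77) were still called in F1. Over all 90 tested genes of the 4 lists, 15 were called in F1 (12 higher, 3 lower), 8 in F2 (6 higher, 2 lower) and 1 between F2 and F1 (lower), beside the shares of all genes given above, 12.3% in F1, 3.86% higher and 8.10% lower in F2, and 0.740% between F2 and F1. Without F1 replicate 1 there were 8 calls in F1. Crtc2 and Rgs4 were called in all 17 settings in F1 and in F2, Amigo3 and Camk4 in all 17 in F1, and Egr3 in all 17 in F2. The F1 calls held in 13 of 17 settings for Crtc3 and Ctgf, in 12 for Egr3 and Nr4a3 and in 9 for Cyr61. Without F1 replicate 2 or either WT library, Crtc3 was not called, and Cyr61 was called with 1 of the 6 libraries left out, F1 replicate 2. The F2 calls held in 14 settings for Amigo3, 11 for Mef2c and 7 for Trib1. The median log2 change of the 32 signalling genes was 0.04 in F1 and 0.11 in F2, and that of the 16 late genes 0.23 (0.20 without F1 replicate 1) and 0.28, against 0.01 and -0.00035 for all genes tested. Between F2 and F1, 0 late and 0 signalling genes were called by the exact test or the quasi-likelihood test. An unadjusted p under 0.05 was found for 5 and 3 by the exact test and 4 each by the quasi-likelihood test. The shares of all genes were 8.64% and 9.01% by these tests. Htr1a, which encodes the serotonin 1A receptor, was between 49.4 and 68.6 CPM, with a log2 change of -0.18 in F1 (exact test, adjusted p = 0.332) and 0.20 in F2 (adjusted p = 0.266).

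Genes whose mean count reached 50 or more, 13670 without the 10 themselves, were searched for the same pattern. Among them, the 5 whose centred log2 levels over the 6 libraries were nearest to the mean profile of the 10 genes were Fam26e, Gm11549, Htr3a, Gadd45b and Scn7a. Their mean absolute distances to it were 0.096, 0.100, 0.121, 0.126 and 0.137 (log2). The 10 genes lay at 0.092 for Nr4a1 to 0.338 for Egr2 from the same profile, of which each is a part. Fam26e was at 11.7 CPM in F1 replicate 1 and between 6.24 and 7.42 in the 5 other libraries. Htr3a, a serotonin-gated ion channel of some interneurons, was at 7.72 CPM in F1 replicate 1 and between 3.94 and 4.75 elsewhere. None of the 5 was called in any comparison by the exact test. The choice rests on 6 libraries and mostly on 1 of them.

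Markers of other cells also differed between libraries. The summed level of 6 granule cell markers was lowest in F1 replicate 1, at 730 CPM against 867 to 1039 in the 5 others. None of the 6 was highest there. Prox1 (228 CPM) and Calb1 (265 CPM), the markers with the highest levels, were lowest there, and the other granule cell markers were not. The summed level of 8 interneuron markers was highest in F1 replicate 1, at 876 against 633 to 809 CPM, with 5 of 8 highest. Sst, an interneuron peptide, was at 217 CPM in F1 replicate 1 and 82.2 in F1 replicate 2, with 87.4 to 164 in the WT and F2 libraries. The sum of 8 oligodendrocyte markers was 2975 CPM in F1 replicate 1, again with 5 of 8 highest. It was 2239 in F1 replicate 2 and between 1098 and 2896 in WT and F2. F2 replicate 2, with 2896, had a mean centred level of the 10 genes of -0.20. For the 7 astrocyte markers the sum was 1034 CPM in F1 replicate 1, within the 893 to 1513 of the others, and none of them was highest there. The 6 endothelial markers summed to 94.0 CPM, within 81.6 to 118, and the 6 microglial markers to 127 CPM, within 107 to 166. The 4 markers of CA2 and CA3 summed to 303 CPM, within 225 to 335, the 3 of CA1 to 119, within 81.2 to 140, and the 2 of mossy cells to 201, within 133 to 254. The 4 markers of immature neurons summed to 107 CPM, within 102 to 126, the 2 of oligodendrocyte precursors to 40.6, within 25.8 to 49.5, the 4 of mural cells to 102, within 90.5 to 124, and the 3 of choroid plexus to 14.3, the lowest value, against 14.5 to 19.0. No marker was at 0 in any library. The part of other cells in the levels of the immediate early genes was not tested.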

How the data were processed

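The 6 RNA-Seq libraries of the series' 18 samples were analysed, and the 12 bisulfite samples were not analysed here. Per the paper's methods and the labels, the authors perfused mice from at least 3 litters with RNAlater, sequenced single-end reads of 50 bp from polyA RNA, aligned them to mm9 with TopHat (TopHat2 2.0.2 and Bowtie 1.0.0 are named in the submitters' processing notes), and deposited raw read counts per gene from HTSeq in intersection-strict mode, without normalization. Reads with several alignments are not in these counts. Handling of the animals before perfusion is not given in the sources used here. Groups and replicates came from the labels. Rows other than genes stayed out of library sizes, and their percentages are of the reads in all rows, gene rows included. They held 9.18 to 14.2 outside features, 0.891 to 1.09 ambiguous and 25.1 to 33.2 not unique. The share outside features was 12.6 and 14.2 in WT, 9.84 and 9.18 in F1, and 10.2 and 11.6 in F2. Both WT libraries thus exceeded every F1 and F2 library. The bearing of this on the changes against WT was not tested.

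Counts were filtered with filterByExpr, scaled by TMM and tested with edgeR 4.0.16 (R 4.3.3), exact test, common then tagwise dispersion over all 6 libraries, and Benjamini-Hochberg adjusted p-values. Which edgeR function the authors used is not named in their methods. Standard errors follow from mean counts and dispersion. The alternatives were the likelihood-ratio and quasi-likelihood tests of edgeR, each with and without a replicate block, DESeq2 1.42.0, other scalings, filters, dispersions and an adjusted p of 0.05, and each library left out. Where that leaves 1 library in a group, it is assumed to vary like the others. The steps were tested on simulated data. Replicates were not duplicates (chi-square per degree of freedom 19.4 to 24.9). Taken over all genes together, counting error is small beside the spread between libraries. This need not hold for genes with few reads, such as Egr2. Exonic lengths and positions came from the GENCODE annotation of NCBIM37 (mm9) and promoters from RefSeq.

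The 10 genes, the gene lists and the tests were chosen with earlier results of these data known. Besides the 10 genes and Htr1a, the text names from each related list the 3 largest changes among genes called in each comparison, and the 5 genes nearest to the mean profile. Sst, Prox1, Calb1 and the antisense gene at Egr1 were named after their values were seen.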

Additional observations from a re-analysis of the deposited data

Results flagged for a closer look

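2 differences between F2 and F1 passed the threshold among the 10 genes and their 90 tested related genes. Arc was 1.10 lower in F2 on the log2 scale (log2 fold change -1.10, exact test, adjusted p = 0.00188), and without F1 replicate 1 the value was -0.56 (adjusted p = 0.229). The call was also lost without F2 replicate 1 (adjusted p = 0.170), without F2 replicate 2 (0.0781), in the quasi-likelihood test (0.139) and in DESeq2 (0.378). Nr4a3 was at -0.67 (exact test, adjusted p = 2.83e-05), and without F1 replicate 1 at -0.56 (adjusted p = 0.00731), still past the threshold. It was not called without F2 replicate 1 (-0.61, adjusted p = 0.0575) or in the quasi-likelihood test without (adjusted p = 0.0274) or with the replicate block (adjusted p = 0.0451). F1 and F2 have the same WT controls, and the difference between F2 and F1 was tested directly.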

How the results depend on the processing

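With 2 libraries a group, the number of genes called depended on the library left out. For the 10 genes this was mostly so in the comparisons that use F1. In those comparisons the share of all genes called also changed with the F1 library left out, as given above. The ranges below were not tested against these shares, so they are not a result about the listed genes alone. Leaving out each library in turn gave 0 to 8 of the 10 genes called in F1 against WT, 0 to 1 in F2 against WT and 0 to 6 in F2 against F1, with the highest counts for F1 and for F2 against F1 without F1 replicate 2. For the 90 related genes it gave 5 to 16, 3 to 9 and 0 to 3. The quasi-likelihood test and DESeq2 each called 0 of the 10 genes in F1 and 0 in F2 against F1, an adjusted p of 0.05 called 3 in F1, and dispersion from the pair called 1 in F2, Npas4. For the related genes, the quasi-likelihood test called 5 in F1, 4 in F2 and 0 in F2 against F1. Of all genes it called 5.91%, 5.72% and 0.0115% in these comparisons. An adjusted p of 0.05 called 3 related genes in F2 against F1, and 230 of all 17421 genes tested.

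Over all genes, the deviations of replicate 1 from replicate 2 were not positively correlated between groups (correlations from -0.18 to -0.03). A batch that touches few genes or crosses replicate numbers would not show in these values. The labels give no batch. With the replicate block, the quasi-likelihood test called 4 related genes in F1, 4 in F2 and 0 in F2 against F1. It called 0 of the 10 genes in F2 against F1. The shares of all genes called were not computed with the replicate block, in DESeq2 or with dispersion from the pair. Nor are they given with a WT or F2 library left out, or for F2 against WT without F1 replicate 2. Counts under these settings therefore have no background to be read against. The likelihood-ratio test with the block called 5 related genes in F2, and Arc in F2 against WT turned from -0.04 to 0.011 with the block in this test and to 0.0091 in the quasi-likelihood test.

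Directions that changed with a library left out, as ranges of log2 fold change, were those of Fos (-0.49 to 1.42), Fosb (-0.22 to 0.72), Egr1 (-0.058 to 1.05), Npas4 (-0.77 to 0.38) and Nr4a1 (-0.12 to 0.98) in F1 against WT. In F2 against WT they were those of Fosb (-0.34 to 0.28), Nr4a1 (-0.13 to 0.29) and Arc (-0.29 to 0.29). In F2 against F1 they were those of Fos (-1.65 to 0.27), Fosb (-0.79 to 0.15), Junb (-0.46 to 0.13), Egr1 (-0.88 to 0.23), Egr4 (-0.65 to 0.092), Npas4 (-1.11 to 0.038) and Nr4a1 (-0.92 to 0.18). Of the recomputed changes of the 10 genes, 465 kept their direction and side of the threshold, 17 changed direction, 15 newly passed the threshold and 10 no longer passed it. The cause was not tested.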
